A study of Mus musculus with 2 samples.

Results

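A set of transcription factor genes that act where blood and vessels arise was followed through Gata1-null and host cells of mouse chimaeras: Runx1, Cbfb, Etv2, Fli1, Erg, Ets1, Etv6 and Sox17. They were taken by name, 8 of the 29453 genes in the deposited matrices, and read in the spliced and unspliced layers of endothelial-like, blood progenitor-like, erythroid-like, megakaryocyte-like and myeloid-like cells. These cells numbered 2096 of 8572 kept cells in the tdTom+ fraction and 1825 of 8711 in the tdTom- fraction. The tdTom+ cells descend from a male embryonic stem cell line that carries a tdTomato reporter and a CRISPR-made frameshift of 38 bp in exon 4 of Gata1, the X-linked gene of the main erythroid transcription factor. This line is 1 clone. The tdTom- cells are the wild-type host cells of the same chimaeras, made by injecting the stem cells into C57BL/6 blastocysts at E3.5. Both fractions were sorted from 1 pool of 6 embryos harvested at E8.5, and each was sequenced as 1 library; the age label of the tdTom- library reads E8.6. Genotype, embryonic origin (injected stem cell or host), strain, sex and library therefore cannot be told apart in any comparison below. With 1 library per fraction no test was possible, and every interval given covers counting error only.

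The 8 genes fall into 3 groups by what they encode. Runx1 is the DNA-binding subunit of core-binding factor and is needed for blood cells to emerge from haemogenic endothelium, and Cbfb is its partner subunit, which does not bind DNA itself. Etv2, Fli1, Erg, Ets1 and Etv6 belong to the ETS family, whose members bind a GGAA core. Etv2 acts early and briefly in setting up blood and vessel precursors, and Fli1 and Erg are close relatives that maintain endothelium and blood stem cells. Ets1 is active in endothelium and also in mesenchymal cells, and Etv6 is mainly a repressor. Sox17 is a SoxF factor of arterial and haemogenic endothelium, and it also marks definitive endoderm.

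The starts of some of these genes are shown because Gata1, ETS and Runx factors are the regulators the comparison turns on. RefSeq promoter windows of GRCm38.p6 were given for 5 of the 8 genes (8 windows), and the 6 printed here are those of Runx1, Cbfb and Etv6, which differed in the same direction between the fractions in erythroid-like cells, of Etv2, which did not, and of the 1 Erg start with a match to the GATA letters. The bases upstream of each start that lie in no annotated exon are printed 5′ to 3′. The proximal Runx1 start is given by RefSeq only: the bases just after it were found in no GENCODE transcript of Runx1, unlike those of the other windows. Capitals mark matches, on either strand, to GATAA, to the ETS letters CCGGAA or AGGAAG, or to the Runx letters TGTGGT or TGCGGT.
Runx1 distal (chr16:92826150-92826324, minus strand): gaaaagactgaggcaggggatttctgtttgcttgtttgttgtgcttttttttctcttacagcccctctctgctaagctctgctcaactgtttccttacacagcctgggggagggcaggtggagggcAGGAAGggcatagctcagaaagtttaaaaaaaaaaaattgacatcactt
Runx1 proximal (chr16:92697330-92697579, minus strand): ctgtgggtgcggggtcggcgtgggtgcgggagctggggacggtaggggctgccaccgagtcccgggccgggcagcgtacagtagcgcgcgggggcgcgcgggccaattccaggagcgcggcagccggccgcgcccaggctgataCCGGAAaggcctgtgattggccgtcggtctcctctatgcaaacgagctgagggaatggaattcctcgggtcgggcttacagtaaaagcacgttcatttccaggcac
Cbfb (chr8:105170424-105170673, plus strand): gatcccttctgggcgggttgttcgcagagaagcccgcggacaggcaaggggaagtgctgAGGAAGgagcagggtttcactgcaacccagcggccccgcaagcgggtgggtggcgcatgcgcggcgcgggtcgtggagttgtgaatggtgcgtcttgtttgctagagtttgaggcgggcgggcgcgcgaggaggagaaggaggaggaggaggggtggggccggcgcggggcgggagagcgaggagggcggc
Etv6 (chr6:134035450-134035699, plus strand): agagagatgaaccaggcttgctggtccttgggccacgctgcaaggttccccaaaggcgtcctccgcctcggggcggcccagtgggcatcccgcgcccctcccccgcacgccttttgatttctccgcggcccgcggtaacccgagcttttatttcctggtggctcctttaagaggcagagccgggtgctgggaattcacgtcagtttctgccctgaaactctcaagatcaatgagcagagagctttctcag
Etv2 (chr7:30635853-30636102, minus strand): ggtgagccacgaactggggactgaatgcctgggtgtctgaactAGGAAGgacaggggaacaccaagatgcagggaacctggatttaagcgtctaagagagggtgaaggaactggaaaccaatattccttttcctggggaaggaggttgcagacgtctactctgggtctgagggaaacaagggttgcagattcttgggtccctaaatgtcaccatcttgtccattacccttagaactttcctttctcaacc
Erg innermost (chr16:95459349-95459598, minus strand): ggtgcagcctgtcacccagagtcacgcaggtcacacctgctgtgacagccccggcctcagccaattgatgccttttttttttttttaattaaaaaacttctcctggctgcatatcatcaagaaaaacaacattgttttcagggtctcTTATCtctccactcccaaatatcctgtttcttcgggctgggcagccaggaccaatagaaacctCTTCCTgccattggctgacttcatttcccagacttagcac
The GATA letters occurred in 1 of the 8 windows, against 22.6% of 32851 promoter windows of 250 bases upstream of a start. ETS letters occurred in 5 of 8, against 38.2%, and Runx letters in 0 of 8, against 18.6%. Such matches are letters in a window and no evidence of binding.

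The loci differ greatly in length, which bears on the unspliced layer. In GRCm38, Runx1 lies on chr16:92601466-92826149 (minus strand), Cbfb on chr8:105170674-105217989 (plus), Etv2 on chr7:30633616-30635852 (minus), Fli1 on chr9:32422204-32542861 (minus), Erg on chr16:95359169-95586593 (minus), Ets1 on chr9:32636221-32757820 (plus), Etv6 on chr6:134035700-134270158 (plus) and Sox17 on chr1:4490931-4497354 (minus). Fli1 and Ets1 are neighbours, 93.4 kb apart. The proximal Runx1 window and the innermost Erg window lie inside their own genes, between exons.

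The spliced layer held 167940767 UMIs in 8981 tdTom+ barcodes and 157174026 in 9252 tdTom- barcodes, and 18 barcode sequences occurred in both libraries. Gata1 itself was at 6.73 CPM (UMIs of a gene per 1000000 spliced UMIs of its group) over all tdTom+ barcodes and 29.3 CPM over all tdTom- barcodes, and in the early erythroid-like comparison at 32.4 against 126 CPM, so transcripts of the targeted gene remained. The tdTomato row held 0 UMIs in both libraries. Erythroid-like cells were almost all tdTom-: 1384 against 3. Blood progenitor-like cells were almost all tdTom+: 1374 against 4. The 2 libraries were clustered without correction between them, so whether the same cell state was present in both fractions was not tested. Each tdTom+ blood cell was assigned to a host sub-cluster by majority of its 15 closest tdTom- cells, without use of the 8 genes.

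Across the kept cells of both fractions, 94.7% of Erg, 90.4% of Runx1 and 84.7% of Fli1 spliced UMIs lay in these blood and endothelial cells, which were 22.7% of all cells. The share was 58.4% for Etv2, 46.9% for Sox17, 36.4% for Ets1, 32.6% for Etv6 and 17.4% for Cbfb. Erg, Runx1 and Fli1 were thus nearly restricted to the blood and vessel compartment of these embryos, while Cbfb was spread over all of it.

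Runx1 was highest in cells named as blood cells here. Its level in myeloid-like cells was 135 CPM in tdTom+ (95% interval 124 to 146), against 106 CPM (77.5 to 142) in tdTom-. In tdTom- megakaryocyte-like cells it was at 96.0 CPM (77.6 to 117), and in tdTom+ blood progenitor-like cells at 93.4 CPM (90.0 to 96.9). The tdTom- erythroid-like cells had 20.6 CPM (18.9 to 22.4). Endothelial-like cells had 3.93 CPM (2.71 to 5.52) in the tdTom+ and 2.98 CPM (1.73 to 4.76) in the tdTom- fraction. Neural-like cells had 1.80 CPM (1.18 to 2.64) and 1.17 CPM (0.77 to 1.72), so the endothelial-like level was low but its interval lay above the neural-like one in each fraction. It did not stand above all clusters outside blood and vessels. Over both fractions, clusters led by Postn and Col1a1, by Tbx4 and Pitx1 and by Pyy and Spink1 had 3.66, 3.23 and 3.08 CPM. The intervals of the tdTom- myeloid-like, tdTom- megakaryocyte-like and tdTom+ progenitor-like levels overlapped, the tdTom+ myeloid-like interval overlapped that of the host myeloid-like cells, and the erythroid-like level was apart from all of these.

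Cbfb followed another order. It was at 47.1 CPM in tdTom+ (42.5 to 51.9) and 48.7 CPM in tdTom- (43.1 to 54.7) endothelial-like cells, and at 49.6 CPM (30.7 to 75.8, 21 UMIs) in tdTom- and 33.5 CPM (28.3 to 39.3) in tdTom+ myeloid-like cells. The tdTom- megakaryocyte-like cells had 30.3 CPM (20.4 to 43.3). It was lowest in tdTom- erythroid-like cells, 4.01 CPM (3.29 to 4.84). Blood progenitor-like tdTom+ cells were at 17.1 CPM (15.6 to 18.6), below the 25.3 and 27.3 CPM of neural-like cells. Endothelial-like cells thus held much Cbfb with little Runx1.

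**Figure D1:**
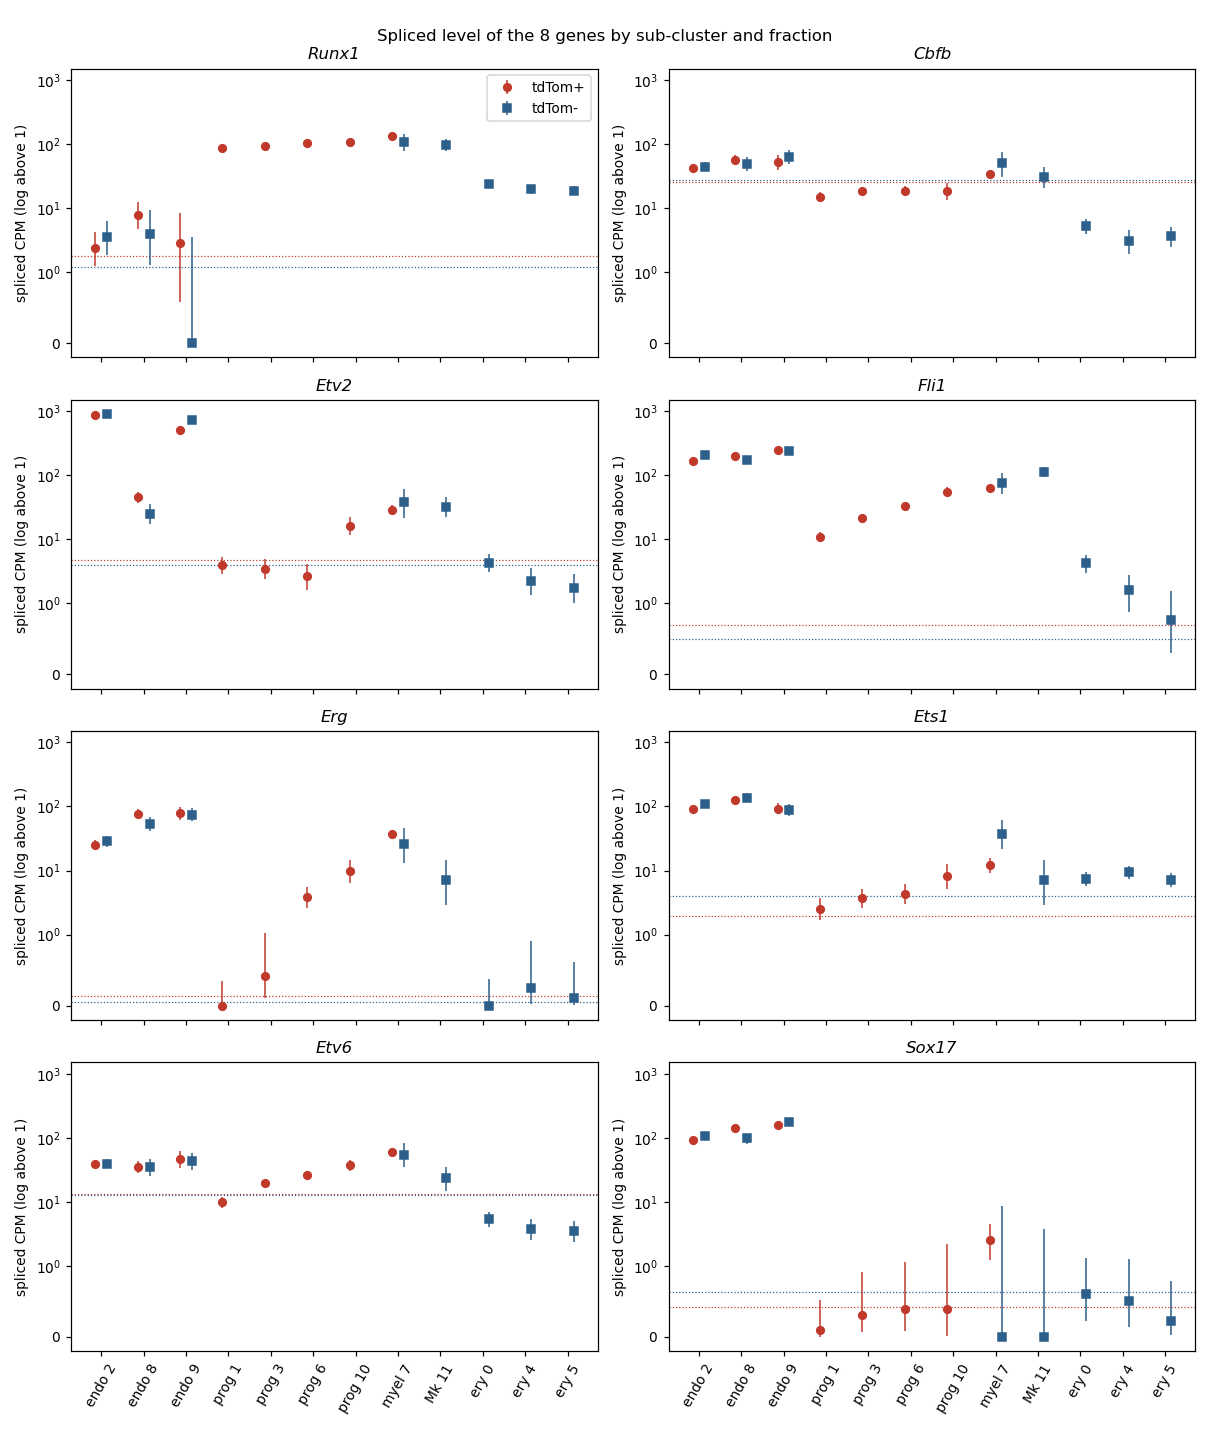
Spliced level (CPM, logarithmic above 1) of each of the 8 genes in the endothelial-like (endo), blood progenitor-like (prog), myeloid-like (myel), megakaryocyte-like (Mk) and erythroid-like (ery) sub-clusters, for tdTom+ (red circles) and tdTom- (blue squares) groups of at least 20 cells; bars are exact 95% Poisson intervals and dotted lines the neural-like cells of each fraction. Ets1 and Sox17 are higher in endothelial-like than in blood cells, Etv2 is too except in sub-cluster 8, where the tdTom- value of 25 CPM lies below those of myeloid-like and tdTom- megakaryocyte-like cells, Runx1 is high in progenitor-like, myeloid-like and megakaryocyte-like cells, and Fli1, Erg and Etv6 differ among the tdTom+ progenitor-like sub-clusters, with Erg at 0 in one of them.

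With sub-clusters pooled, the ETS genes and Sox17 were highest in endothelial-like cells among blood and endothelial cells, with 1 exception. Etv2 was at 591 CPM (575 to 608) among tdTom+ and 677 CPM (656 to 698) among tdTom- cells. Fli1 was at 186 and 203 CPM, Ets1 at 101 and 112 CPM, Erg at 46.1 and 42.5 CPM and Sox17 at 115 and 117 CPM in the same order of fractions. For Erg the lead was small: tdTom+ myeloid-like cells had 37.1 CPM (31.6 to 43.2), which overlapped the tdTom- endothelial-like interval (37.4 to 48.2) and exceeded both values of the endothelial-like sub-cluster 2 given below. The exception was Etv6, which endothelial-like cells held at 39.1 (tdTom+) and 39.0 CPM (tdTom-), but which reached 59.1 CPM (52.1 to 66.7) in tdTom+ myeloid-like cells. In tdTom- myeloid-like cells Etv6 was at 54.3 CPM, with an interval of 34.4 to 81.5 that overlapped the endothelial one.

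The endothelial-like cells came in 3 sub-clusters that differed in Etv2. Sub-cluster 2 (264 tdTom+ and 187 tdTom- cells, led by Phlda2, Etv2 and Cdkn1c) had 856 CPM of Etv2 among its tdTom+ cells and 908 CPM among its tdTom- cells. Sub-cluster 9 (69 and 74 cells, led by Emcn and Hapln1) had 504 and 725 CPM. Sub-cluster 8 (151 and 91 cells, led by Lyve1 and Selenop) had 45.1 and 25 CPM. Erg took another order: it was lowest in sub-cluster 2, at 25.2 and 28.4 CPM, and stood at 77.5 and 53.2 CPM in sub-cluster 8 and at 78.3 and 74.9 CPM in sub-cluster 9. Fli1 and Ets1 kept within 169 to 244 CPM and 88.1 to 138 CPM over the 3 sub-clusters and both fractions, and Sox17 within 93.7 to 177 CPM. The sub-clusters were formed without any of the 8 genes.

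In the 4 blood progenitor-like sub-clusters of the tdTom+ fraction, Fli1, Erg and Etv6 differed several-fold while Runx1 and Cbfb did not. Fli1 was at 10.9 CPM (9.03 to 13.1) in sub-cluster 1, 21.1 CPM (18.3 to 24.2) in sub-cluster 3, 32.8 CPM (28.8 to 37.1) in sub-cluster 6 and 55.1 CPM (46.4 to 65.0) in sub-cluster 10. These 4 intervals did not overlap, and the tdTom+ myeloid-like sub-cluster followed at 63.1 CPM (55.9 to 71.0). Etv6 took the same order, at 9.89, 19.7, 26.4 and 37.0 CPM, and so did Erg, with 0 UMIs of 10713281 in sub-cluster 1 and 0.42, 3.83 and 9.84 CPM in the other three. Runx1 lay between 86.3 and 107 CPM in the same 4 sub-clusters and Cbfb between 14.9 and 18.4 CPM.

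Some other regulators gave these sub-clusters the same order and some a different one. Elf1, another ETS gene, was at 4.11, 6.79, 17.7 and 29.5 CPM in sub-clusters 1, 3, 6 and 10. Meis1 was at 0.84, 1.04, 3.57 and 28.3 CPM, and Hhex and Elk3 also rose in that order. The order was thus not particular to Fli1, Erg and Etv6, and Spi1 and Gata2 did not follow it. Spi1, the gene of the myeloid factor PU.1 and itself an ETS gene, was at 16.1, 61.7, 149 and 90.1 CPM in sub-clusters 1, 3, 6 and 10, and Gata2, the GATA factor of blood stem and progenitor cells, at 127, 146, 125 and 211 CPM. Globin transcripts made up 2.23%, 2.04%, 2.04% and 0.24% of their spliced UMIs. Etv2 was at 16.1 CPM (11.6 to 21.9) in sub-cluster 10 and at 2.64 to 3.92 CPM in the other three, which is the level of neural-like cells (4.79 and 3.97 CPM).

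Which of the 8 genes differed between Gata1-null and host cells was asked in 5 comparisons, each as a log2 fold of summed spliced CPM, tdTom+ over tdTom-. A gene is counted as past 2-fold by size alone, and the share of all genes with at least 100 spliced UMIs that were past 2-fold is given beside each count.

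The early erythroid-like comparison set 905 tdTom+ cells, nearly all from the blood progenitor-like sub-clusters, against the 531 tdTom- cells of the erythroid-like sub-cluster that they resembled most. It is called early because globin made up 8.27% of the spliced UMIs of those host cells, against 11.1% in the other erythroid-like host cells. Runx1, Cbfb, Fli1, Erg and Etv6 were higher in the Gata1-null cells, Ets1 was lower, and Etv2 and Sox17 did not differ beyond counting error. By size alone 7 of 8 genes were past 2-fold, of which Erg and Sox17 rested on few UMIs. Among the 6 genes with at least 100 UMIs, 5 were past 2-fold (4 higher and 1 lower), beside 9.73% of 8044 genes tested (6.66% higher and 3.07% lower). The median log2 fold of all tested genes was 0.16, and that of the 8 members, with Erg at its bound, was 1.51.

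Runx1 was at 91.9 CPM (1852 UMIs) in tdTom+ and 23.2 CPM (228 UMIs) in tdTom-, a log2 fold of 1.99 (95% interval 1.79 to 2.19). Cbfb was at 17 against 5.19 CPM, a log2 fold of 1.71 (1.28 to 2.16). Both subunits of core-binding factor were thus higher in the mutant fraction, and Cbfb nonetheless stayed below its level in neural-like cells.

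Fli1 was at 19.4 against 4.17 CPM, a log2 fold of 2.21 (1.75 to 2.71), and Etv6 at 15.9 against 5.40 CPM, a log2 fold of 1.56 (1.14 to 2.01). The higher Etv6 value lay within the range of the neural-like clusters, which had 11.3, 17.3 and 11.1 CPM over both fractions. Erg had 17 UMIs in tdTom+ and 0 in tdTom-, at least 2.76-fold higher when set against the 3 UMIs that a count of 0 allows over the group. Erg was therefore barely detected in either fraction of this comparison. It had 0 spliced UMIs in tdTom+ sub-cluster 1, which gave 455 of the 905 cells.

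Ets1 was at 3.03 CPM (61 UMIs) in tdTom+ and 7.43 CPM (73 UMIs) in tdTom-, a log2 fold of -1.30 (-1.81 to -0.79). Neural-like cells had 1.94 and 4.02 CPM of Ets1 in the same order, so the lower value stood in the tdTom+ fraction there too. The 3 neural-like clusters were at 6.04, 1.63 and 1.01 CPM of Ets1 over both fractions. Etv2 was at 3.77 and 4.28 CPM, a log2 fold of -0.18 (-0.74 to 0.40), and neural-like cells were at 4.79 and 3.97 CPM. Sox17 had 5 and 6 UMIs, and its log2 fold of -1.30 had an interval from -3.35 to 0.68. The intervals of Etv2 and Sox17 overlapped those of neural-like cells in both fractions, and no difference in them was detectable at this depth in this comparison.

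The later erythroid-like comparison (314 tdTom+ against 853 tdTom- cells) gave the same directions for the genes that were well counted. Its tdTom+ cells too were nearly all blood progenitor-like, with 268 from sub-cluster 3 and 2 from an erythroid-like sub-cluster. Globin made up 2.69% of their spliced UMIs, against 11.1% in the host cells. In this comparison 5 of 8 genes were past 2-fold, all 5 with at least 100 UMIs, 4 of them higher and 1 lower. Beside this stood 10.0% of 7508 genes (6.18% higher and 3.86% lower). Fli1 was at 14.5 against 1.17 CPM, a log2 fold of 3.64 (2.93 to 4.41). Runx1 was at 89.3 against 19.1 CPM, 2.23 on the log2 scale (2.03 to 2.43), Cbfb at 13.5 against 3.33 CPM, 2.02 (1.53 to 2.52), and Etv6 at 13.7 against 3.63 CPM, 1.91 (1.43 to 2.40). Ets1 was at 2.79 against 8.19 CPM, -1.55 on the log2 scale (-2.33 to -0.86), and at -0.73, within 2-fold, when doublets were kept. Etv2, on 25 and 34 UMIs, was at 3.67 against 1.99 CPM, and both values lay below those of neural-like cells in the same fraction. Its log2 fold of 0.88 (0.08 to 1.67) was within 2-fold, but it was 1.02 with cells thinned to 5000 UMIs. Within the host cells Fli1 stood at 4.17 CPM in the early sub-cluster, 1.64 CPM in sub-cluster 4 and 0.76 CPM in sub-cluster 5, the last overlapping the neural-like level of 0.50 CPM, whereas Runx1 kept 18.7 to 23.2 CPM.

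The 2 erythroid-like comparisons share no cells, but all 5 comparisons come from the same pair of libraries. Cell type markers differed too. The erythroid and blood progenitor markers had also served to name the sub-clusters compared, so their differences were in part fixed by that naming. All 7 erythroid markers were at least 2-fold lower in tdTom+ cells of the early comparison, and their summed level was 17526 against 78909 CPM. The 6 myeloid markers summed to 49.9 against 1.73 CPM with 1 of 6 at least 2-fold higher, and Ptprc was at 0 in both fractions. The 6 blood progenitor markers summed to 467 against 200 CPM with 3 of 6 at least 2-fold higher and 1 at least 2-fold lower. In the later comparison the erythroid markers summed to 24675 against 105523 CPM, again with all 7 at least 2-fold lower. The myeloid markers summed there to 25.5 against 0.58 CPM (1 of 6 higher). The progenitor markers summed to 407 against 159 CPM (3 of 6 higher and 1 lower). The part of these marker differences in the values of the 8 genes was not tested.

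**Figure D2:**
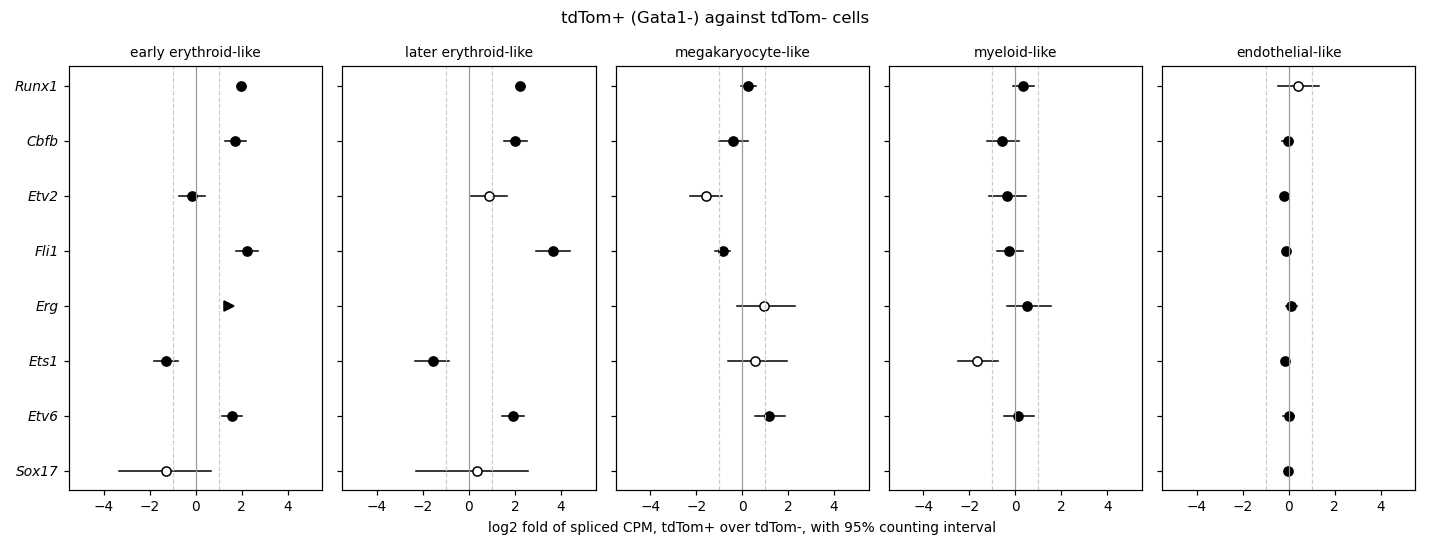
Log2 fold of spliced CPM, tdTom+ over tdTom-, of the 8 genes in each comparison, with exact 95% counting intervals; filled circles have at least 100 UMIs over both fractions, open circles fewer, the triangle is a lower bound, and dashed lines mark 2-fold. Runx1, Cbfb, Fli1 and Etv6 sit right of the 2-fold line in both erythroid-like comparisons, and all 8 genes sit within it in endothelial-like cells.

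In the megakaryocyte-like comparison (188 tdTom+ against 56 tdTom- cells) Runx1 was at 115 against 96.0 CPM, a log2 fold of 0.26 (-0.06 to 0.60) whose interval held 0. Its unspliced log2 fold, on 1512 and 286 UMIs, was 0.38 (0.20 to 0.57), small but beyond counting error. Past 2-fold were 2 of 8 genes, Etv6 (52.8 against 23.2 CPM, 1.18 on the log2 scale, 0.56 to 1.87) and Etv2 (10.7 against 32.3 CPM, -1.59, -2.29 to -0.89), of which Etv2 rested on 75 UMIs. Among the 4 genes with at least 100 UMIs 1 was past 2-fold, beside 5.43% of 4991 genes. Fli1, a regulator of megakaryocyte genes, was lower without reaching 2-fold, at 62.8 against 113 CPM, a log2 fold of -0.85 (-1.18 to -0.52). With the mean over cells in place of summed counts, Fli1 was past 2-fold, at -1.18. The Etv6 difference was seen in spliced UMIs but hardly in unspliced ones, whose log2 fold was 0.19 (0.00 to 0.37). Of the 188 tdTom+ cells, 29 came from the myeloid-like sub-cluster and also enter the myeloid-like comparison, 1 was megakaryocyte-like itself and the rest were blood progenitor-like. The 7 megakaryocyte markers summed to 87.7 CPM in tdTom+ and 308 CPM in tdTom-, with 5 of 7 at least 2-fold lower, and the 6 myeloid markers to 342 against 170 CPM with 3 of 6 at least 2-fold higher. The 6 blood progenitor markers summed to 787 against 400 CPM with 4 of 6 at least 2-fold higher and 1 lower, and the 5 endothelial markers to 36.1 against 73.7 CPM with 0 of 5 past 2-fold either way. The 7 erythroid markers summed to 7038 against 9553 CPM with 3 of 7 at least 2-fold lower. The part of these in the Etv6, Etv2 and Fli1 values was not tested.

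In the myeloid-like comparison (234 tdTom+ against 29 tdTom- cells) the host cells gave 423605 spliced UMIs in all, which limits every value. At a finer resolution the myeloid-like cells were 101 tdTom+ and 5 tdTom-, while 132 tdTom+ and 26 tdTom- cells of sub-clusters 7 and 8 formed an unnamed cluster with 4 of 6 myeloid and 5 of 5 endothelial markers raised. Among the 6 genes with at least 100 UMIs 0 were past 2-fold, beside 5.53% of 5175 genes. With fewer UMIs, Ets1 was past it, at 12.0 against 37.8 CPM (53 and 16 UMIs), or -1.66 on the log2 scale (-2.48 to -0.75). The endothelial markers summed to 283 against 614 CPM in these cells, with 2 of 5 at least 2-fold lower in tdTom+, and their part in the Ets1 value was not tested. The spliced intervals of Runx1 (0.34, -0.09 to 0.82), Fli1 (-0.26, -0.79 to 0.32), Erg (0.52, -0.36 to 1.55) and Etv6 (0.12, -0.50 to 0.80) all held 0 and were wide enough to hold changes of 1.5-fold or more. In unspliced UMIs the intervals of Runx1 (0.32, 0.09 to 0.55) and Fli1 (-0.39, -0.73 to -0.04) lay on 1 side of 0.

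In endothelial-like cells (484 tdTom+ against 352 tdTom-) none of the 8 genes was past 2-fold, beside 0.625% of 7841 genes. Etv2 had a log2 fold of -0.20 (-0.26 to -0.13), Fli1 of -0.13 (-0.24 to -0.02) and Ets1 of -0.15 (-0.30 to 0.00). Erg was at 0.12 (-0.12 to 0.35), Etv6 at 0.00 (-0.25 to 0.25), Cbfb at -0.05 (-0.27 to 0.18) and Sox17 at -0.02 (-0.17 to 0.12). These intervals are narrow because of the counts, which for Etv2 were 4960 and 3866 UMIs, and none of these 7 spliced intervals reached 2-fold for the pooled endothelial-like cells. Runx1, with 33 and 17 UMIs, had a spliced log2 fold of 0.40 (-0.48 to 1.34).

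Within the endothelial-like sub-clusters small differences ran in both directions. In sub-cluster 8, Etv2 was higher in tdTom+ by 0.85 on the log2 scale (0.26 to 1.47), Sox17 by 0.55 (0.24 to 0.85) and Erg by 0.54 (0.13 to 0.97). In sub-cluster 9, Etv2 was lower in tdTom+, at -0.52 (-0.69 to -0.36). In sub-cluster 2 it was at -0.09 (-0.15 to -0.02), and Fli1 and Ets1 were at -0.27 (-0.42 to -0.12) and -0.26 (-0.46 to -0.06). Among genes with at least 100 UMIs, 0 of 7 members were past 2-fold in sub-cluster 8, 0 of 7 in sub-cluster 2 and 0 of 6 in sub-cluster 9, beside 0.921% of 4561, 0.751% of 6523 and 0.688% of 3199 genes. With fewer UMIs, Runx1 in sub-cluster 8 was at 1.01 in spliced UMIs (-0.47 to 2.80, 18 and 5 UMIs) and 1.05 in unspliced UMIs (0.14 to 2.06, 48 and 13 UMIs).

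A finer clustering changed the Etv2 result, as it split the Etv2-rich cells by fraction. One fine cluster with 1280 CPM of Etv2 in its 139 tdTom+ cells and 1137 CPM in its 32 tdTom- cells could no longer be named endothelial-like, while another with 1227 CPM in its 99 tdTom- cells and 3 tdTom+ cells could. With the first left out by name, the log2 fold of Etv2 over the endothelial-like cells was -1.32. That value leaves the 139 tdTom+ cells out, in which Etv2 was as high as in the host cells that were kept. A further endothelial-like fine cluster, all from sub-cluster 2, had 331 CPM of Etv2 in its 122 tdTom+ and 162 CPM in its 56 tdTom- cells.

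Whether endothelial-like cells held spliced Runx1 UMIs at all was asked per cell, after thinning each cell to 5000 spliced UMIs. A Runx1 UMI was found in 8 of 462 tdTom+ cells, 1.73% (Clopper-Pearson 95% interval 0.75 to 3.38), and in 4 of 339 tdTom- cells, 1.18% (0.32 to 2.99). Neural-like cells, which should lack the gene, had 1.21% (10 of 824) and 0.29% (4 of 1369), at median depths of 16794.5 and 15134 UMIs beside 16724 and 15492.5 in endothelial-like cells. The intervals of the endothelial-like and neural-like shares (0.58 to 2.22 and 0.08 to 0.75 for the latter) overlapped in both fractions, whereas the intervals of the summed levels above did not. After thinning, the share in the pooled endothelial-like cells was thus not separable from background at this depth in the spliced layer. Unspliced Runx1 UMIs did not enter these shares. Endothelial-like cells held 80 of them in tdTom+ and 32 in tdTom-, beside 33 and 17 spliced ones. This covers only cells given that name. The Runx1-rich sub-cluster 7, named myeloid-like, had 6 of 6 myeloid but also 4 of 5 endothelial markers raised. At the finer resolution, part of it joined cells of sub-cluster 8 in an unnamed cluster with 5 of 5 endothelial markers raised. Whether Runx1 is absent from every cell with endothelial markers was therefore not tested. Without thinning the endothelial-like shares were 5.79% and 3.98%, beside 3.10% and 1.70% in neural-like cells. Unthinned, tdTom+ cells of sub-cluster 8 had the gene in 13 of 151 cells, 8.61% (4.66 to 14.3), above the interval of tdTom+ neural-like cells (2.04 to 4.51), and 7.88 CPM (4.67 to 12.5). The tdTom- cells of sub-cluster 8, with 3 of 91 or 3.30% (0.69 to 9.33), and the tdTom+ cells of sub-cluster 2, with 12 of 264 or 4.55% (2.37 to 7.81), overlapped the neural-like cells of their fraction, whereas the tdTom- cells of sub-cluster 2, with 11 of 187 or 5.88% (2.97 to 10.3), lay above theirs (1.09 to 2.52). Sub-cluster 9 held 3 Runx1 UMIs in its 69 tdTom+ cells and 0 in its 74 tdTom- cells. Thinned, the tdTom+ share of sub-cluster 8 was 3 of 142, 2.11% (0.44 to 6.05), which overlapped the neural-like one. The thinned tdTom- share of sub-cluster 2 was 3 of 182, 1.65% (0.34 to 4.74), and also overlapped that of the neural-like cells of its fraction. In the blood progenitor-like cells of tdTom+ the thinned share was 34.0% (464 of 1363), in erythroid-like tdTom- cells 9.39% (127 of 1353), and in the myeloid-like cells 47.8% and 39.1%.

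The unspliced layer holds reads from introns. Of all UMIs of a gene, 87.8% were unspliced for Etv6 (gene span 234 kb), 74.1% for Runx1 (225 kb), 69.0% for Fli1 (121 kb), 58.8% for Cbfb (47.3 kb) and 51.5% for Erg (227 kb). Only 21.1% were unspliced for Ets1, whose span of 122 kb is that of its neighbour Fli1, 2.52% for Sox17 (6.42 kb) and 0.70% for Etv2 (2.24 kb). Span alone thus did not order the genes, as the Fli1 and Ets1 pair shows.

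In the early erythroid-like comparison the unspliced log2 fold was 2.43 for Runx1 (2.30 to 2.56), above the upper limit of its spliced fold. It was 1.84 for Cbfb (1.5 to 2.19), 2.27 for Fli1 (1.97 to 2.58) and 1.61 for Etv6 (1.45 to 1.77), each within the spliced interval. Runx1 was accordingly 76.1% unspliced in tdTom+ and 70.0% in tdTom- cells there, with intervals of 75.1 to 77.0 and 66.6 to 73.2. Fli1 (71.9% and 71.1%) and Etv6 (88.0% and 87.7%) had nearly equal shares. The unspliced share of Runx1 was lower in endoderm-like cells, at 27.5% in tdTom+ (14.6 to 43.9, with 29 spliced UMIs) and 24.1% in tdTom- (15.4 to 34.7, with 63), than in the blood groups of at least 20 cells, at 70.0% to 78.7%. In endothelial-like cells the unspliced log2 folds of Fli1 (-0.27, -0.35 to -0.20), Etv6 (-0.26, -0.34 to -0.17) and Ets1 (-0.44, -0.71 to -0.17) were more negative than the spliced ones. Sox17 was at -0.81 (-1.55 to -0.08, 31 and 37 UMIs), and Runx1 was higher in tdTom+, at 0.77 (0.16 to 1.41, 80 and 32 UMIs). None of these was past 2-fold. All unspliced folds given here were taken per spliced UMI of the group. A difference in total unspliced content between the libraries would therefore enter them, and its part was not tested.

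**Figure D3:**
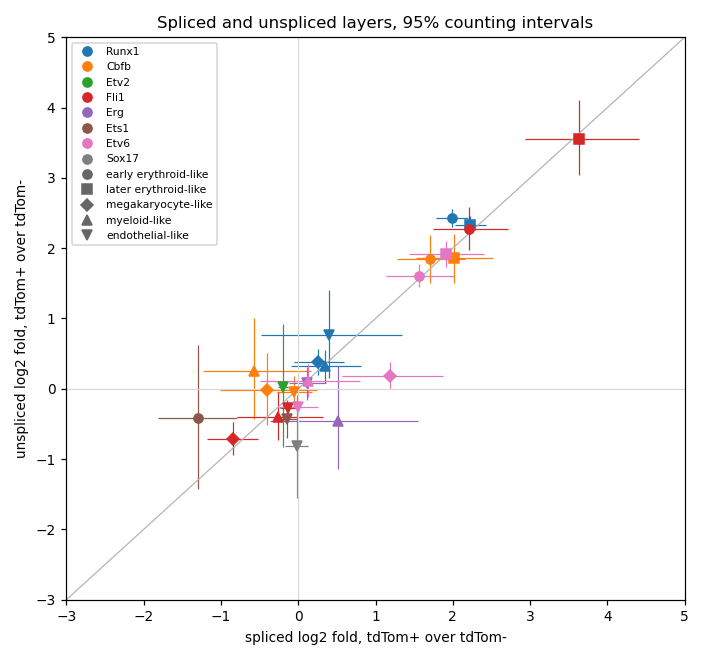
Unspliced against spliced log2 fold, tdTom+ over tdTom-, for each gene (colour) and comparison (marker) with at least 10 UMIs in every layer and fraction; bars are exact 95% counting intervals and the grey line marks equality. Runx1, Cbfb, Fli1 and Etv6 lie near the line and above 1.5 on both axes in the erythroid-like comparisons, and Etv6 in megakaryocyte-like cells lies below the line.

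The spliced layer undercounts some of these genes. Runx1 had 5243 spliced UMIs, 36.8% of the 14229 UMIs in the gene totals the authors deposited from Cell Ranger, where the median over 10645 genes was 95% and 10.1% of genes were at or below the Runx1 value. Ets1 was at 75.7%, and the other members at 95.3% to 102%. Neither the cause nor its part in the unspliced shares of Runx1 given above was tested.

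The genes around the 8 were read from lists of related factors and targets in the early erythroid-like comparison, in which 6.66% of all tested genes were at least 2-fold higher and 3.07% at least 2-fold lower. Among Runx partners and cofactors 2 of 6 measured genes were higher and 0 lower: Cbfa2t3, the corepressor ETO2, at 1.46 on the log2 scale (153 against 55.7 CPM), and Tle4, a Groucho corepressor, at 1.02. The other Runx genes were near 0, with 0 UMIs of Runx2 in both fractions and 0 and 1 UMI of Runx3. Of 8 measured ETS genes outside the 8 followed here, 3 were higher and 1 lower. Spi1 was at 52.1 against 1.22 CPM (5.41, 4.60 to 6.37), Elf4 had 153 UMIs against 0 (at least 24.9-fold higher), and the repressor Erf was at 10.4 against 2.55 CPM (2.03). Elf1, which also binds ETS sites in blood genes, was lower at 7.10 against 20.6 CPM (-1.54, -1.85 to -1.22). The median log2 fold of this list was 0.37 with Elf4 at its bound and -0.04 without it.

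Partner factors of the stem cell complex split as well: 2 of 7 were higher, Gata2 at 140 against 3.67 CPM (5.25, 4.78 to 5.77) and Hhex at 2.13, and 0 lower. Tal1 (0.92), Lmo2 (0.01), Lyl1 (-0.14), Ldb1 (0.22) and Tcf3 (0.44) were within 2-fold. Of 6 measured genes known to act downstream of Runx1 in haemogenic cells, 3 were higher, Spi1, Myb (115 against 8.55 CPM, 3.75) and Cd44 (27.8 against 2.44 CPM, 3.51). Itga2b, the gene of CD41 and a marker of the first blood cells, was lower at 12.2 against 44.0 CPM (-1.85, -2.08 to -1.62). Gfi1b (-0.45) and Nfe2 (0.66) were within 2-fold. The endothelial genes bound by ETS factors were mostly too low to count, and the 2 of 12 with 100 UMIs, Pecam1 (-1.08) and Egfl7 (-1.05), were both lower. Efnb2, the 1 of 12 arterial genes with 100 UMIs, was higher at 10.9 against 1.43 CPM (2.94). In endothelial-like cells 0 genes of these lists with at least 100 UMIs were past 2-fold. Spi1 stands in 2 of the lists.

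**Figure D4:**
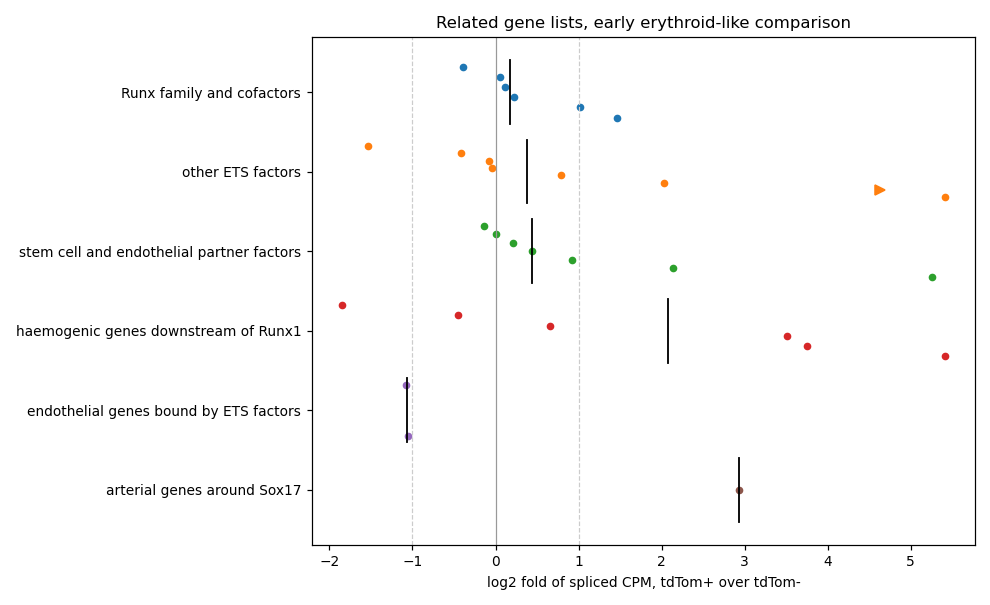
Log2 fold of spliced CPM, tdTom+ over tdTom-, in the early erythroid-like comparison for genes with at least 100 UMIs in 6 lists of related factors and targets; points are genes, the triangle is a lower bound (Elf4), black lines are list medians with the bound included and dashed lines mark 2-fold. Spi1 at 5.41 and Gata2 at 5.25 lie far right, and Elf1 and Itga2b lie left of the lower 2-fold line.

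The 8 genes were also followed outside blood and vessels, over all clusters of both fractions together. Ets1 was at 145 CPM in the 371 neural crest-like cells of 1 cluster (led by Sox10 and Foxd3), above its endothelial-like level, and at 48.2 and 41.8 CPM in unnamed clusters led by Tcf15 and Meox1 and by Tdo2 and Lum. Sox17 was at 161 CPM in an endoderm-like cluster of 256 cells led by Nepn and Apela and at 336 CPM in 20 tdTom- cells led by Srgn and Col4a1. Etv2 was at 161 CPM in 422 cells led by Ebf1 and Tbx1, at 147 CPM in 446 tdTom- cells led by Phlda2 and Cdkn1c, at 70.9 CPM in a cluster led by Tbx4 and Pitx1 (683 tdTom+ cells and 1 tdTom- cell), and at 78.2 CPM in 912 cells led by Hoxd1 and Cdx4, well above the neural-like background. Outside blood, Runx1 was highest in an endoderm-like cluster of 70 cells (62 of them tdTom-) led by Apoa1 and Rbp4, at 38.8 CPM with 64 UMIs. Fli1 was at most 16.5 CPM and Erg at most 0.66 CPM in the clusters led by Tcf15, Phlda2, Ebf1, Tbx4, Hoxd1 and Tdo2.

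**Figure D5:**
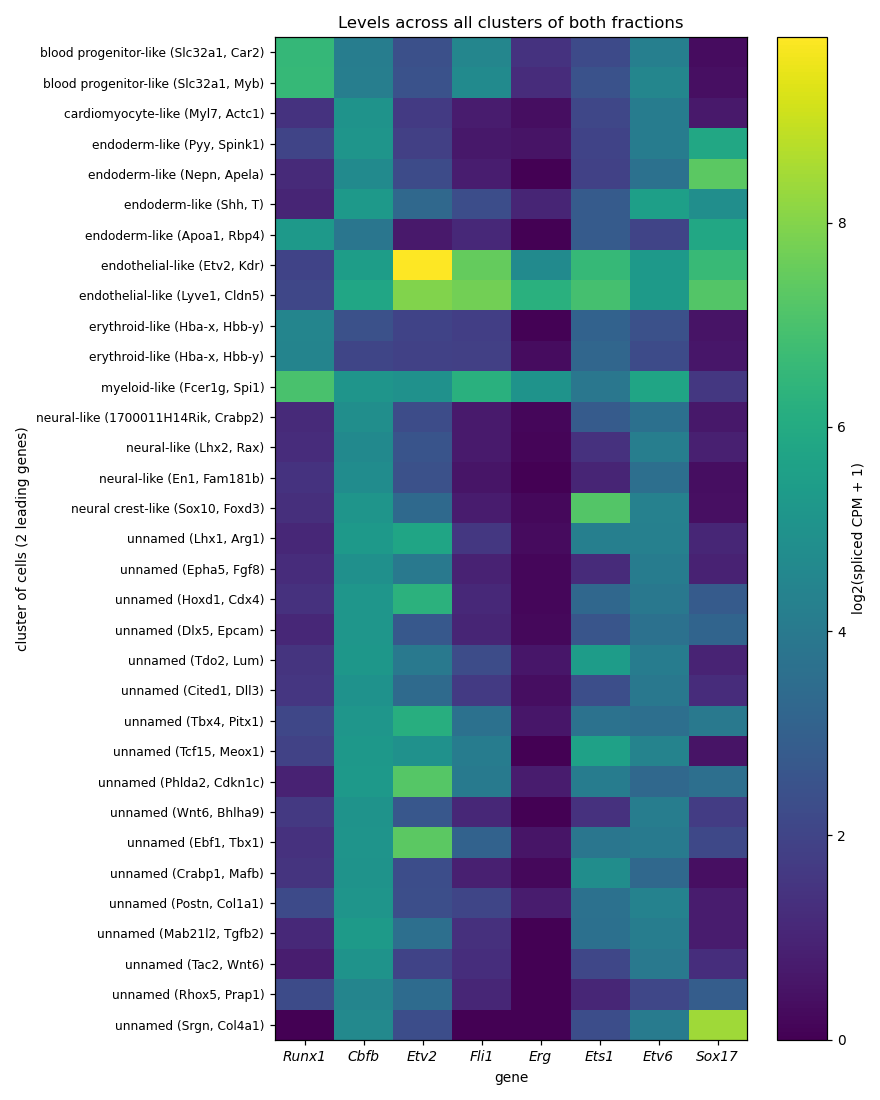
Spliced level, log2(CPM + 1), of the 8 genes (columns) in every cluster of kept cells of both fractions (rows, named by class and 2 leading genes). Runx1 and Erg are bright in few rows, Etv2, Ets1 and Sox17 have further bright rows outside the blood and endothelial ones, and Cbfb and Etv6 are present in every row.

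The pattern of each gene was compared with that of 10250 others over 15 points, the sub-clusters of each fraction with at least 50 cells, by Pearson correlation of log2(CPM + 10). These points share 2 libraries and few cell types, so the values are descriptions. Nearest to Runx1 were Adgrg1 (0.99), Ctps2 (0.97) and Slc35c1 (0.96), and nearest to Cbfb were Atxn10, Sptan1 and Cfl1 (0.98 each to 2 decimals). Etv2 was nearest to Rbm24 (0.99), Gpc3 and Dusp9 (0.97 each), and Sox17 to Crmp1, Dbn1 and Amotl1 (0.99 each). Fli1 was nearest to Sptan1, Dnajc18 and Rcbtb2 (0.98 each), Erg to Fndc3a, Adam15 and Tspan5 (0.98 each), Ets1 to Trio, Nrp1 and Arhgef15 (0.99 each), and Etv6 to Arhgef2 (0.98), Rps6ka1 and H2afy (0.97 each). Among the 8 themselves, Ets1 and Sox17 (0.98) and Cbfb and Fli1 (0.97) were most alike, and Runx1 was negatively correlated with the other 7, from -0.14 with Etv6 to -0.85 with Sox17.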

How the data were processed

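Single-cell RNA of 2 fractions was measured, 1 library each, so cells were not treated as replicates and no test was made. The authors aligned reads with Cell Ranger 3.0.2 to GRCm38 (mm10), called cells with emptyDrops, filtered them on depth and mitochondrial share, and separated spliced and unspliced UMIs with velocyto. The deposited matrices are raw UMI counts. Deposited cell tables give percent mitochondrial UMIs (medians of 2.02% to 3.11% in the groups compared) and Cell Ranger totals. Median depth was 17598 spliced UMIs per cell in tdTom+ and 15996 in tdTom-.

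Doublets were called with Scrublet in scanpy 1.11.5 (377 and 518 cells, 4.20% and 5.60%) and removed with 1 doublet-rich cluster. Cells were clustered with leidenalg 0.10.2 at resolution 1.5 on 50 components, and blood and endothelial cells again at resolution 1, leaving out 155 genes that included the 8 members. Names needed at least 3 markers at 2-fold. CPM was computed from summed spliced counts, with exact 95% Poisson, conditional and Clopper-Pearson intervals (scipy 1.17.1). Genes needed 100 UMIs over both fractions to enter shares past 2-fold. For every comparison a bound against 0 used 3 counts and left out the counting error of the other fraction. The fold intervals were tested on simulated Poisson counts, the model they assume. These had no variation between cells or libraries, so only the calculation was checked. Named genes were the 8 members, up to 4 genes per list and direction past 2-fold, with other list genes added after their values were seen, and the 3 most similar genes of each member. Members and lists were chosen with earlier results of these data known. The alternatives tried were layers, denominators, thinning (mean of 20 draws), subtraction of the neural-like level, matching distance, neighbours, resolution and doublets.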

Additional observations from a re-analysis of the deposited data

Results flagged for a closer look

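Fli1 differed between the fractions in opposite directions in different cells. Its log2 fold, tdTom+ over tdTom-, was 2.21 in the early and 3.64 in the later erythroid-like comparison, and -0.85 in megakaryocyte-like and -0.13 in endothelial-like cells, and each counting interval lay on 1 side of 0. The endothelial-like direction did not hold throughout: it was 0.04 at resolution 2, and 0.18 and 0.03 in sub-clusters 8 and 9, whose intervals held 0. With 1 library per fraction the difference between these folds was not tested.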

How the results depend on the processing

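No paired analysis was possible because each fraction is 1 library, and for the same reason no replicate could be left out. Cosine distance and 30 nearest cells bear on the matched comparisons only. Subtracting the neural-like level left 3 genes past 2-fold (Runx1, Fli1 and Ets1) in both erythroid-like comparisons, since the tdTom- values of Cbfb and Etv6 were at or below that level and gave no fold. In megakaryocyte-like cells the number past 2-fold was 1 with spliced plus unspliced UMIs, 4 with the mean over cells (Fli1 among them) and 1 with cosine distance. In myeloid-like cells it was 2 with the mean over cells, 2 after subtracting the neural-like level and 2 at resolution 2. In endothelial-like cells it was 1 at resolution 2 (Etv2). The share of endothelial-like cells with a spliced Runx1 UMI was 5.79% in tdTom+ and 3.98% in tdTom- without thinning. In the early comparison the log2 fold of Runx1 ranged from 1.39 to 2.29, that of Fli1 from 1.27 to 2.34, of Etv6 from 1.03 to 1.75 and of Cbfb from 1.5 to 1.91, the lowest for Runx1, Fli1 and Etv6 with doublets kept, where the host sub-cluster held 208 cells. In the later comparison Fli1 ranged from 2.71 with doublets kept to 4.36 after subtracting the neural-like level. Cbfb ranged there from 1.39 to 2.14, Runx1 from 2.10 to 2.33 and Etv6 from 1.63 to 2.00. Ets1 in the later comparison was at -0.73 with doublets kept, within 2-fold. With doublets kept, the host side there took in an erythroid-like sub-cluster of 249 cells, 91.2% of them called doublets. Etv2 in the later comparison was at 1.02 with cells thinned to 5000 UMIs, past 2-fold. Sox17, on few UMIs, was at 1.10 there with doublets kept. Without a minimum of UMIs, 23.7% to 42.8% of genes were past 2-fold, since genes with few UMIs entered. Ranking similar genes by Spearman rho left 2 of the 24 names listed. Under these alternatives 0 folds past 2-fold changed direction. Depth limits Erg and Sox17 in erythroid-like cells, Runx1 in endothelial-like cells and every value of the 29 myeloid-like host cells.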
